A study of Rattus norvegicus with 2 samples.

Results

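The genes described here were 6 genes of haemoglobin and the red cell, namely the globin genes Hba-a1, Hbb, Hbb-bs and Hbbl1, the heme synthesis gene Alas2 and the anion exchanger gene Slc4a1, out of 22093 genes on the arrays. They were chosen by name, after their ratios between the DMA pool and the control pool had been seen, so their ratios are given as a description and not as a test. The 6 genes were represented by 7 of 68842 transcript clusters, which are groups of array probes that together cover 1 transcript. A cluster was included when the platform annotation gave it 1 of these symbols and no other.

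The DMA group was male F344 rats given 200 ppm dimethylarsinic acid (DMA), a methylated arsenic metabolite that causes bladder tumours in rats, in drinking water for 4 weeks. The control group was male F344 rats given water with 0 ppm DMA over the same 4 weeks. According to the labels, both groups were 6 weeks old at the start and 10 weeks old at sampling, whereas the methods of the study describe older animals. The methods describe mucosae collected from all 7 rats of a group, and each group has 1 array. The RNA on an array is therefore taken here to be a pool of 7 rats, although neither the labels nor the methods state the pooling outright. There was no spread between replicates, no p-value and no error for any difference. The labels name the tissue as urinary bladder, and the methods describe epithelial cells released from the inverted bladder into TRIzol. The rats were exsanguinated before the bladder was removed.

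Haemoglobin is a tetramer of alpha-type and beta-type globin chains, each of which holds a heme group that binds oxygen. Its mRNA is made in erythroid precursors of the bone marrow, and young red cells (reticulocytes) still carry globin mRNA in the circulation. Blood held in the vessels of a tissue can thus bring globin mRNA into an RNA extract of that tissue. Rats carry several near-identical copies of the alpha and beta genes, next to embryonic copies that are expressed before birth.

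The alpha- and beta-type globin genes of rat lie in 2 groups in the GRCr8 assembly, the beta-type genes on chromosome 1 and the alpha-type genes on chromosome 10. RefSeq places Hbb-bs at chr1:167630245-167631630, Hbbl1 at chr1:167648859-167650235 and Hbb at chr1:167662310-167663721, with Hbb-b1 and Hbb-b2 between them. Hba-a1 lies at chr10:15841724-15842580, near Hba-a2 and Hba-a3. Alas2 lies on chromosome X and Slc4a1 on another stretch of chromosome 10. The build behind the array's clusters was not given in the sources used here, so these positions describe the genes and not the probes.

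The 110 bases before the annotated start of each of the 4 globin genes are shown because these genes had lower signals together. They are taken from RefSeq (GRCr8), written from 5′ to 3′ on the strand of the gene, with matches to 4 motifs in capitals. The motifs were CCAAT, the box bound by NF-Y and related factors; CACCC, the box bound by KLF1 in erythroid cells; GATAA, the core bound by GATA1; and TATAA, a form of the TATA box. Both strands were searched, and matches were allowed to overlap. In Hbb, CCAAT matches on opposite strands lie next to each other and form 1 run of capitals.
Hba-a1 (chr10:15842581-15842690, minus strand): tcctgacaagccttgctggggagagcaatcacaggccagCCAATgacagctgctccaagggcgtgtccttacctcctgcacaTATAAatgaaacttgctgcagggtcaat
Hbb-bs (chr1:167631631-167631740, minus strand): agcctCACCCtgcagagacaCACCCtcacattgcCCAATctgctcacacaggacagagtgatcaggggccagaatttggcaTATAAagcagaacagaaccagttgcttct
Hbbl1 (chr1:167650236-167650345, minus strand): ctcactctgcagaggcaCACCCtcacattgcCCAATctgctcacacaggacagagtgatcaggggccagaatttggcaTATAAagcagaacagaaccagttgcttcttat
Hbb (chr1:167663722-167663831, minus strand): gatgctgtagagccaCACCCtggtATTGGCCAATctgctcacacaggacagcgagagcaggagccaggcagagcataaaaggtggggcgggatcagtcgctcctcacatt

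The table of promoters held 5 of the 6 genes, and Slc4a1 was not among them. The start used for Alas2 lay 4800 bases inside the annotated gene, so its window is not shown. The start used for Hbb-b1 also lay inside the annotated gene. Its 110 bases (chr1:167643521-167643630, minus strand) overlap the gene, which ends at chr1:167643577. Hbb-b1 was kept in the counts and comparisons below. Over the 250 bases before the start, all 8 alpha- and beta-type globin genes in the table (the 4 above with Hba-a2, Hba-a3, Hbb-b1 and Hbb-b2) held a CCAAT match, against 34.0% of 33469 rat promoter windows of the same length. A CACCC match was found in 7 of the 8, with Hba-a3 as the exception, against 49.2% of all windows. TATAA was found in 7 of the 8, with Hbb as the exception, against 24.0%. GATAA was found in 2 of the 8, Hba-a1 and Hba-a2, against 23.5%. These are matches of letters, and binding was not measured. Several of the 8 windows are near-identical copies, so they are not 8 separate observations and nothing is read from these counts. A link between the matches and the lower globin signals was not tested.

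The windows of the beta-type copies were close to identical. Hbbl1 and Hbb-b2 matched at all 248 aligned bases, Hbbl1 and Hbb-b1 at 242 of 247, and Hbb-bs and Hbbl1 at 236 of 247. Hbb differed more, with 158 of 226 aligned bases identical to Hbb-bs. Among the alpha-type genes, Hba-a1 and Hba-a2 matched at 241 of 250 bases and Hba-a1 and Hba-a3 at 171 of 226. The sequences of the array's probes were not used here. Transcript sequences were not compared either, and the windows do not show whether copies share probes. Near-identical copies can bind the same probes, so the values of the alpha- and beta-type genes below are uncertain as values of separate genes.

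**Figure D1:**
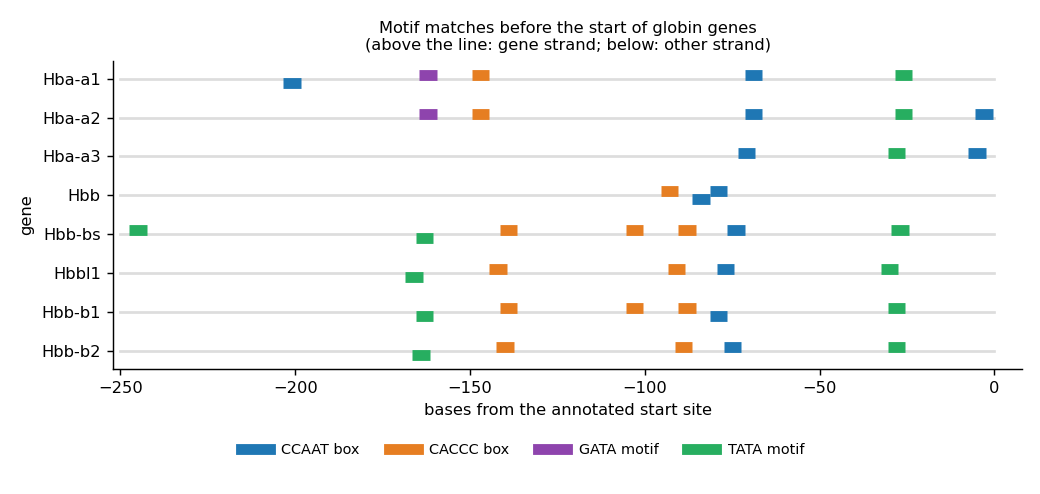
Matches to 4 motifs in the 250 bases before the start used for each of 8 globin genes. Distance from the start in bases is on the x axis, with 1 gene per line. For Hbb-b1 the start used lies inside the annotated gene. Blocks above a line are on the strand of the gene and blocks below it on the other strand; a CCAAT match is present in each of the 8 genes, and a GATAA match in Hba-a1 and Hba-a2.

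The 4 globin genes had lower signals in the DMA pool, by 2.24-fold to 7.03-fold, while Alas2 and Slc4a1 were too dim to be measured. Genes with a signal of 100 or more in either pool were treated as measured, with the brightest cluster standing for the gene. Signals are linear RMA values. For a gene to be called lower, its ratio of DMA over control had to be 0.5 or less and its Z score -2 or less, and for a gene to be called higher, both had to be 2 or more. The Z score places the log2 ratio among those of the 500 genes nearest in signal. By these thresholds all 4 measured globin genes were lower, where 1.42% of all 11718 measured genes were lower and 0.375% were higher. The contrast was the one used to choose the genes, and nothing is read from the count. The median log2 ratio was -2.25 for the 4 genes and -0.04 for all measured genes.

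Hba-a1, which encodes an alpha-globin chain, gave a signal of 18864 in the DMA pool and 89173 in the control pool (cluster TC1000004401.rn.1). The log2 ratio was -2.24, a 4.73-fold lower signal. In both pools the cluster was among the brightest of the array, at percentile 96.1 of all clusters in the DMA pool and 97.3 in the control pool. Its ratio was the 9th lowest of the 11718 measured genes.

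Hbbl1, annotated as a beta-like globin gene, had the lowest ratio of the 6 genes, with 683 in the DMA pool and 4801 in the control pool (cluster TC0100002239.rn.1). This was a log2 ratio of -2.81, or 7.03-fold lower, and the 3rd lowest ratio of all measured genes. The genes with a lower ratio, named after their values were seen, were Cyp1a1 (log2 ratio -4.74) and Ccn1 (-3.85). Hbbl1 lay at percentile 84.4 of signals in the DMA pool and at percentile 93.3 in the control pool.

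Hbb-bs, another beta-type gene, had 2 clusters, and both were lower in the DMA pool. The brighter one gave 416 in the DMA pool and 1986 in the control pool, a 4.78-fold lower signal (log2 ratio -2.26). The dimmer one gave 294 in the DMA pool and 945 in the control pool, which was 3.21-fold lower (log2 ratio -1.68). The log2 ratio of the brighter cluster minus that of the dimmer one was -0.57, so clusters annotated to 1 gene gave different sizes of the same direction. The brighter cluster had the 8th lowest ratio of all measured genes.

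Hbb, the beta-globin gene with the highest start coordinate of the beta-type copies above, gave 99.6 in the DMA pool and 223 in the control pool (cluster TC0100006234.rn.1). The log2 ratio of -1.16, or 2.24-fold lower, was the smallest difference among the 4 globin genes and the 97th lowest of all measured genes. Its signal in the DMA pool was just under the minimum of 100, at percentile 63.8 of all clusters.

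Alas2, the erythroid form of the first enzyme of heme synthesis, gave 65.8 in the DMA pool and 98.6 in the control pool, so neither signal reached the minimum. Its log2 ratio was -0.58. Slc4a1, which encodes band 3, the anion exchanger of the red cell membrane, gave 47.2 in the DMA pool and 40.2 in the control pool, with a log2 ratio of 0.23. These signals lay at percentiles 46.1 and 43.3, beside array medians of 53.2 in the DMA pool and 49.7 in the control pool. For Slc4a1 a difference was not detectable at this signal, and Alas2 was not ranked among the measured genes.

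**Figure D2:**
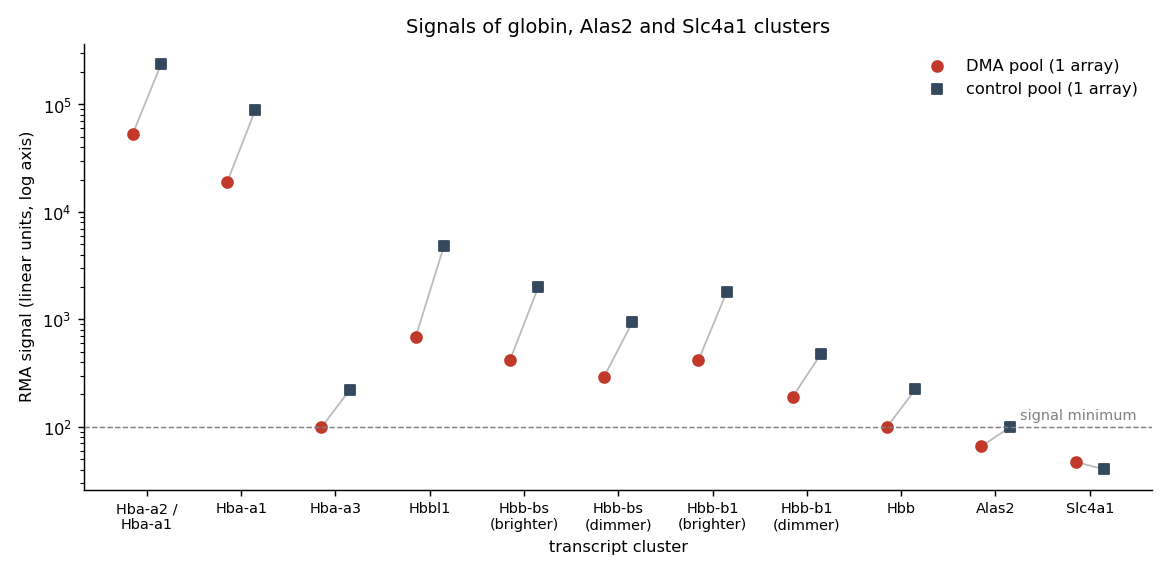
RMA signal (log axis) of each cluster of the 6 genes and of related globin clusters, with the DMA pool as red circles and the control pool as dark squares, 1 array each and no error bars. The 9 globin clusters are lower in the DMA pool, and Alas2 and Slc4a1 lie under the dashed minimum of 100 in both pools; positions of different clusters on the axis also depend on their probes.

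**Figure D3:**
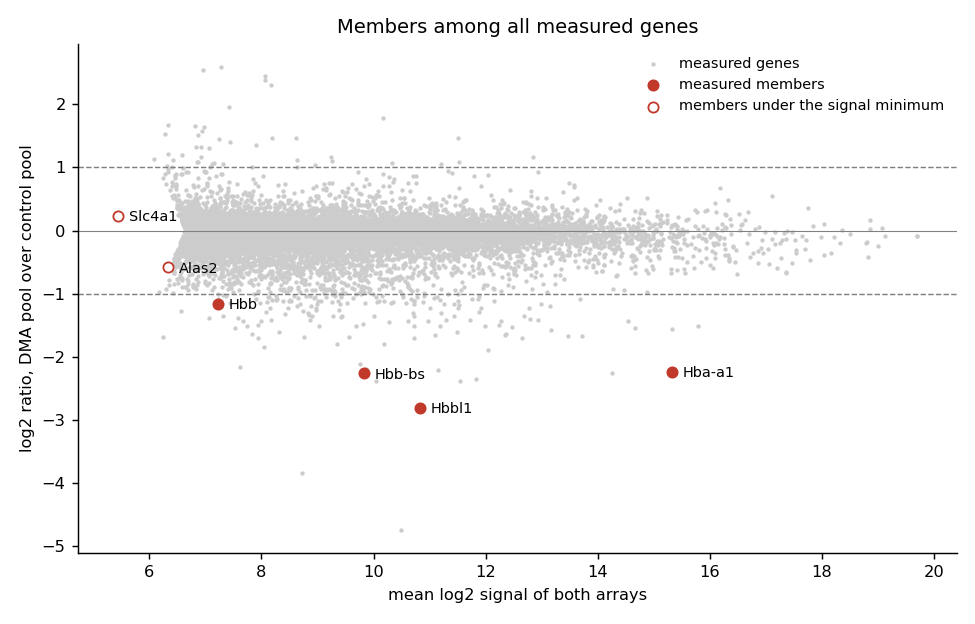
Log2 ratio of the DMA pool over the control pool against mean log2 signal for the 11718 measured genes (grey), the 4 measured globin genes (filled red) and Alas2 and Slc4a1 (open red). Dashed lines mark ratios of 2 and 0.5; Hba-a1, Hbb-bs and Hbbl1 lie near the lower edge of the cloud at very different signals.

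Of the globin clusters outside the 6 genes, the alpha- and beta-type ones were lower in the DMA pool, while those of embryonic and theta-type genes were dim. A cluster annotated to both Hba-a2 and Hba-a1 gave 53342 in the DMA pool and 236884 in the control pool, or 4.44-fold lower, close to the 4.73-fold of the Hba-a1 cluster. Hba-a3, a further alpha-type copy, gave 98.7 in the DMA pool and 220.1 in the control pool, or 2.23-fold lower. The beta-type gene Hbb-b1 had 2 clusters, the brighter with 418 in the DMA pool and 1803 in the control pool (4.32-fold lower) and the dimmer with 191 in the DMA pool and 479 in the control pool (2.51-fold lower). With the clusters of the 4 globin genes, 9 globin clusters were measured, and 9 of these had a ratio of at most 0.5, where 1.41% of 12307 measured clusters with 1 symbol did. The cluster annotated to both Hba-a2 and Hba-a1 is not among those 12307. Of the 9, 5 belong to the genes chosen on this contrast. Hbb and Hba-a3 passed the signal minimum through the control pool alone. For these reasons nothing is read from the count. The 9 share genes or near-identical sequence and are not 9 separate observations.

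The embryonic and theta-type copies were dim in both pools. The epsilon genes Hbe1 and Hbe2, the gamma-type gene Hbg1, the zeta gene Hbz, Hbq1 with 2 clusters, Hbq1b and the pseudogene Hbe1l-ps1 made up 8 clusters, all under the minimum with signals of 19.0 to 69.7. Their log2 ratios ran from -0.05 to 0.21. Hbe2, the brightest of these, gave 69.7 in the DMA pool and 61.8 in the control pool.

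Globins outside the red cell were also looked at. Cytoglobin (Cygb), which is expressed by fibroblast-like cells of many organs, gave 549 in the DMA pool and 844 in the control pool (log2 ratio -0.62) and was not past the thresholds. Myoglobin (Mb, 41.5 in the DMA pool and 37.6 in the control pool) and neuroglobin (Ngb, 80.4 in the DMA pool and 94.4 in the control pool) were not measured.

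The size of the ratio differed among the 9 measured globin clusters, with a median log2 ratio of -2.11. The difference was mostly larger in brighter clusters but did not follow signal throughout. The Spearman correlation of log2 ratio with mean log2 signal was -0.85 over the 9 clusters. The 5 clusters with a control signal of at least 1000 were 4.32-fold to 7.03-fold lower. The 4 clusters under 1000 were 2.23-fold to 3.21-fold lower. The smallest differences were those of Hbb and Hba-a3, which passed the minimum of 100 through the control pool alone. Among the brighter clusters, the log2 ratios of the Hba-a2 and Hba-a1 cluster (-2.15) and of Hba-a1 (-2.24) were smaller in size than that of the dimmer Hbbl1 (-2.81). These values are a description, and the part of signal in the ratios was not tested. Which of the globin genes differed most between the pools cannot be settled with 1 array per group.

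Other genes of red cell formation were looked at next. Of 62 further genes of heme synthesis, the red cell membrane, erythroid regulation, red cell enzymes and reticulocyte maturation on the array, 36 were measured, 0 were lower and 0 were higher at the thresholds. Since 1.42% of all measured genes were lower and 0.375% were higher, a count of 0 among 36 genes is near the share over all genes, and nothing is read from it. Their median log2 ratio was -0.03, beside -0.04 for all measured genes, and 21 of the 36 were below 0. With 1 array per group no replicated test could be run on these genes. Many of these genes are also expressed outside the red cell lineage.

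In heme synthesis, all 12 genes on the array were measured, with a median log2 ratio of 0.06, which was -0.04 when each array was centred on its median. The ratios were between -0.14 and 0.28. Urod, an enzyme in the middle of the pathway, gave 13216 in the DMA pool and 10865 in the control pool (log2 ratio 0.28), and the mitochondrial glycine carrier gene Slc25a38 was at 0.25. Tspo, a porphyrin-binding protein of the outer mitochondrial membrane, was at 0.25. Fech, which inserts iron into the ring, was at -0.14. Alas1, the form of the first enzyme used in all tissues, gave 1812 in the DMA pool and 1852 in the control pool, beside the dim signals of its erythroid relative Alas2.

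Genes of the red cell membrane and its skeleton were mostly dim, with 5 of 16 measured and a median log2 ratio of -0.05, which was 0.06 with the mean of all clusters of a gene and 0.08 with no signal minimum. The largest ratios were those of Gypc (-0.27), which encodes a glycophorin, and of the band 4.1 gene Epb41 (-0.23, with 2547 in the DMA pool and 2980 in the control pool). The water channel gene Aqp1 was at 0.13 and the urea transporter gene Slc14a1 at 0.09. The rest of the list had signals of 24.9 to 97.5. Among them, Epb42 (protein 4.2, which binds band 3) gave 44.95 in the DMA pool and 57.6 in the control pool, and the Rh-associated gene Rhag gave 28.6 in the DMA pool and 24.9 in the control pool.

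Erythroid regulators that define red cell precursors were near the dim end of the array. Gata1 gave 27.96 in the DMA pool and 29.5 in the control pool, and Klf1, the activator of adult beta-globin, gave 27.9 in the DMA pool and 24.9 in the control pool. Ahsp, the chaperone of free alpha-globin, gave 37.8 in the DMA pool and 35.2 in the control pool. Of the 12 genes of this list, 3 were measured, namely Zfpm1 (log2 ratio -0.31), Ldb1 (-0.17) and Lmo2 (-0.12), cofactors that are also found outside blood. Over 12 listed red cell markers, 10 were on the array, 4 were measured (the 4 globin genes), and the other 6 had signals of 24.9 to 98.6, with 3 log2 ratios below 0 and 3 above 0.

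Enzymes of the red cell included 7 measured genes of 11, with a median log2 ratio of -0.07 and none past a threshold. Hk1 (hexokinase) was at -0.23, Car2 (carbonic anhydrase) at 0.13, Bpgm, which makes the effector that lowers the oxygen affinity of haemoglobin, at -0.12, and Blvrb at -0.10. Car1, the abundant carbonic anhydrase of red cells, gave 79.98 in the DMA pool and 86.3 in the control pool and was not measured. Genes of reticulocyte maturation included 10 measured genes of 12, with a median of -0.03, which was 0.02 with the arrays centred on the loading reference list. The largest log2 ratios were those of Ube2l6 (-0.32), Tent5c (-0.24), the heme-sensing repressor gene Bach1 (0.24) and Fech (-0.14).

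Genes that clear haemoglobin and break down heme had 8 measured members of 12, 0 past a threshold and a median log2 ratio of -0.07. The haemoglobin receptor gene Cd163 of macrophages gave 394 in the DMA pool and 440.2 in the control pool (log2 ratio -0.16). The transporter gene Slco2b1 was at -0.66, Lrp1, the receptor for heme bound to hemopexin, at -0.39 and the heme exporter gene Flvcr1 at 0.33. Hmox1, the inducible heme oxygenase, named here after its values were seen, gave 77.6 in the DMA pool and 63.8 in the control pool and was not measured.

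Markers of neutrophils, platelets and lymphocytes gave few measured genes. None of 12 neutrophil markers was measured, with signals of 14.3 to 90.0. Of 9 platelet markers, Pf4 was measured, with 136 in the DMA pool and 142 in the control pool (log2 ratio -0.07). Of 11 lymphocyte markers, 2 were measured, Cd4 at -1.43 and Cd3g at 0.00. Cd4 is also found on rat macrophages, and 11 of 12 macrophage and monocyte markers were measured, with a median of -0.77. Of these, Ccr2, the receptor of monocytes recruited from blood, gave 349 in the DMA pool and 1210 in the control pool (log2 ratio -1.79) and Fcgr2b was at -1.10, both lower at the thresholds, with Csf1r at -0.88 and Ptprc at -0.81. The 11 ran from -1.79 to 0.17, with 9 below 0 and 2 above 0. Over all measured genes, 1.42% were lower at the thresholds. These lists were written with earlier results of these data known, so nothing is read from the number of lower genes. In a pooled tissue sample, fewer cells of a type and less RNA per cell cannot be told apart.

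Among markers of the bladder wall, only the fibroblast and matrix list held genes past the thresholds. Of 12 fibroblast and matrix genes, 9 were lower at the thresholds, where 1.42% of all measured genes were. The list was written with earlier results of these data known, so nothing is read from the count. The 12 had a median log2 ratio of -1.44 and a range of -1.67 to -0.59, led by Ogn (-1.67), Mfap5 (-1.61), Col1a2 (-1.56) and Fbn1 (-1.51). The summed signal of this list was 355356 in the DMA pool and 674479 in the control pool. The ratios of Hba-a1, Hbb-bs and Hbbl1 were below that of each gene of this list, and that of Hbb lay within its range. The globin genes were chosen on this contrast, so nothing is read from this order. Genes outside the list also had ratios below each of its genes, among them C7 (-2.26) and Igfbp3 (-2.36). Of 12 endothelial genes, which mark the vessels that hold blood, 10 were measured, and 0 were lower or higher at the thresholds. The 10 had a median of -0.26 and a range of -0.77 to -0.02, with the lowest values for Kdr (-0.77), Plvap (-0.72), Eng (-0.49) and Pecam1 (-0.33). The 10 smooth muscle genes had a median of -0.39, with Smtn (-0.86), Lmod1 (-0.64), Cnn1 (-0.50) and Synpo2 (-0.47) lowest. Of these 10 genes too, 0 were lower or higher at the thresholds. A count of 0 among 10 genes is near the share over all genes, and nothing is read from it.

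The 13 urothelial genes had a median of 0.03, which was -0.07 with each array centred on its median, and their summed signal was 2017114 in the DMA pool and 1912201 in the control pool. Krt20 was lower (-1.23). Krt18 (0.68) was past the Z threshold (Z score 2.69) but not the ratio threshold, and Krt8 (0.31) and Pparg (-0.21) were past neither. Both the urothelial and the wall genes were bright in the 2 pools, so the defining markers of the labelled tissue were present. The 11 loading reference genes had a median of -0.05, which was 0.06 after a loess correction of ratio on signal. The amount of blood, wall tissue and urothelium in each pool was not measured, and the part of any of these in the lower globin signals was not tested.

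**Figure D4:**
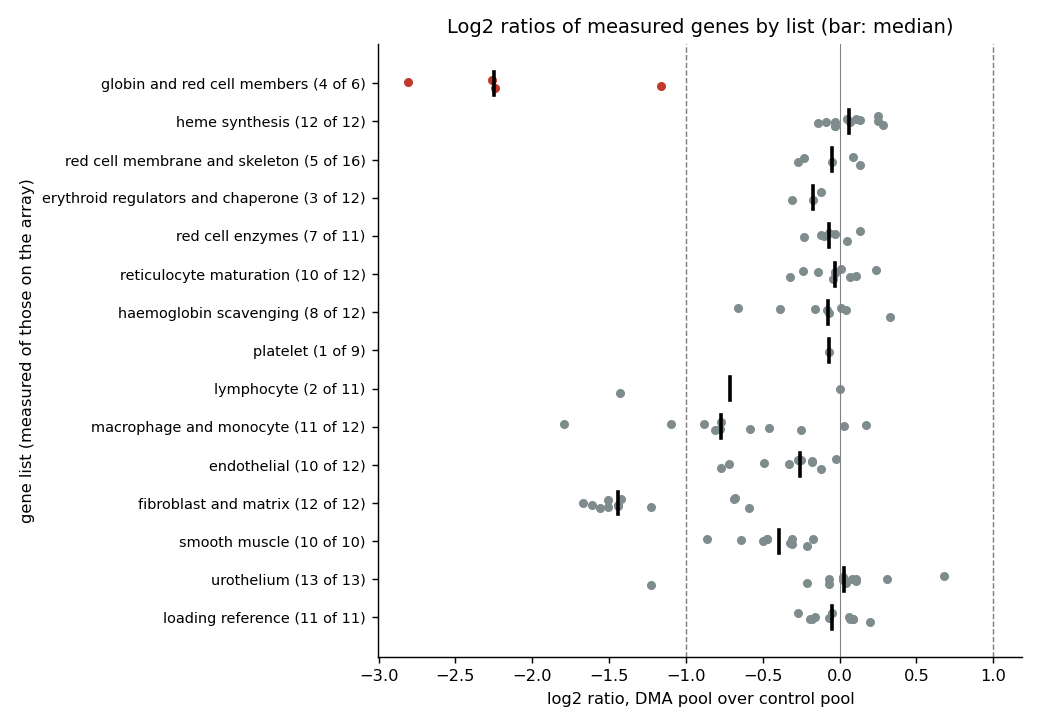
Log2 ratio of the DMA pool over the control pool for each measured gene of 15 lists, 1 dot per gene, with the list median as a black bar and ratios of 2 and 0.5 as dashed lines. The 4 measured globin genes (red, top) have a median of -2.25, the red cell lists lie around 0, and the fibroblast and matrix list has a median of -1.44.

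The measured genes whose log2 ratio lay nearest to the median of the 4 globin genes were C7 (-2.26), Stmn2 (-2.21), Lrat (-2.20), Ccl11 (-2.16), Igfbp3 (-2.36) and Cyp1b1 (-2.38). Likeness was the absolute difference in log2 ratio over the 2 arrays, at most 0.132 for these 6 genes. C7 encodes a complement component, Stmn2 a neuronal microtubule regulator, Lrat a retinol esterifying enzyme, Ccl11 a chemokine, Igfbp3 a binding protein of insulin-like growth factors and Cyp1b1 a cytochrome P450. A likeness over 2 arrays is 1 number per gene and says nothing about shared control.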

How the data were processed

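Per the labels, RNA was extracted with TRIzol and labelled with a GeneChip WT PLUS kit, and the authors processed the arrays with RMA in Affymetrix Expression Console 1.4.1. The deposited values are RMA signal intensities on a linear scale: the log2 of 100% of them lay within 1e-08 of a number with 6 decimals, so log2 was taken before ratios were formed. The methods name another array type and describe median normalization with dim values removed, whereas the deposited values also hold signals under 100. RMA makes the distributions of arrays alike and narrows ratios of dim clusters. The genome build was not given in the sources used here.

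Of 68842 clusters, 23446 had 1 gene symbol, of which 22077 were updated through gene identifiers of GRCr8. Clusters with several symbols (505) or none (44891) named no gene. The brightest of several clusters stood for a gene. The ratio and Z thresholds follow the study's methods, while the reference set of 500 genes was chosen here. Genes named were the 6 genes, other globin genes, up to 4 measured genes with the largest ratios per list, other red cell genes by value, and the 6 genes nearest in ratio. The genes and the 17 lists were chosen with earlier results of these data known. Only 1 array was available per group, which limits the precision of every value. The calling of genes by ratio and Z score was tested on simulated data, with no signal minimum and the same noise at all signals. The other steps were not tested in this way. Python 3.11.15, pandas 2.3.3, numpy 2.4.6, statsmodels 0.14.6, scipy 1.17.1, Biopython 1.88 and matplotlib 3.10.9 were used, and promoter windows were aligned globally with Biopython.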

Additional observations from a re-analysis of the deposited data

How the results depend on the processing

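Each of 7 alternatives kept the 4 globin genes on the same side of the ratio threshold wherever they gave a value. This outcome was largely fixed in advance, and nothing is read from it. The settings of the signal minimum and of the Z score leave a gene's ratio unchanged. The mean of clusters could change only Hbb-bs among the 4. Array centring, loading reference centring and loess moved the median log2 ratio of measured genes by only -0.099, 0.053 and 0.040. The log2 ratio of Hba-a1 ran from -2.34 to -2.14, that of Hbb-bs from -2.35 to -1.97 (-1.97 with the mean of its clusters), that of Hbbl1 from -2.91 to -2.76 and that of Hbb from -1.26 to -1.11. With a minimum of 100 in both pools, Hbb had no value and 3 genes were lower. Alas2 ran from -0.68 to -0.53 and Slc4a1 from 0.13 to 0.28. Over all measured genes, 147 to 244 were lower, and 19 to 62 were higher. With a minimum of 100 in both pools, 19 genes were higher (against 44 as reported) and 159 were lower (against 166 as reported). That setting left out genes with a signal under 100 in either pool. The medians of the lists for heme synthesis (-0.04 to 0.11), red cell membrane (-0.15 to 0.08), reticulocyte maturation (-0.13 to 0.02), urothelium (-0.07 to 0.20) and loading references (-0.15 to 0.06) changed sign under at least 1 setting. No paired analysis was possible because each group had 1 array, and no replicate could be left out. Signals near or under the array medians of 53.2 (DMA pool) and 49.7 (control pool) limit what can be said of Slc4a1 and of the embryonic globin genes. The same holds for most of the erythroid regulators.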
